A study of Mus musculus with 23 samples.

Results

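*Trp53*, which encodes the transcription factor p53, and 9 of its target genes were followed in mouse embryonic stem cells (ESCs) in which *Zbtb11*, a gene for a zinc finger transcription factor, had been deleted. The 10 genes were taken by symbol from the 37310 genes counted, and all 10 were among the 14172 genes tested. Every cell was of the E14 ESC line. *Zbtb11* KO cells were *Zbtb11* lox/lox with an ERt2-Cre transgene in the *Rosa26* locus and received 250 nM 4-hydroxytamoxifen (4OHT), which lets ERt2-Cre cut out an exon between the loxP sites, and RNA was taken at 48 h. The EtOH control was the same engineered line with the ethanol carrier alone. The 4OHT control was *Zbtb11* WT/WT with an unmodified *Rosa26* locus, so it carried neither the lox alleles nor ERt2-Cre, and received 250 nM 4OHT. KO cells thus differ from the EtOH control in 4OHT, active Cre and the deletion together, and the 4OHT control differs from both other groups in genotype, so these parts cannot be told apart. RNA-seq held 3 replicates of each group, and Zbtb11 binding had been mapped by ChIP-seq with a Zbtb11 antibody in 4 libraries of E14 cells and with anti-FLAG in 3 libraries of Zbtb11 FLAG/FLAG cells, with FLAG ChIP in untagged cells as the control.

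Between 14301457 and 23876604 reads fell on genes in a library. Replicate 1 lay apart in all 3 groups. The study left out of its final comparison 1 replicate that lay apart in all groups, whose number its text does not give. This was taken to be replicate 1, so the tests below use replicates 2 and 3 (2 libraries a group) and replicate 1 is shown beside them. A gene was called at an adjusted p under 0.05 in edgeR's quasi-likelihood test. Replicate 1 libraries of different groups deviated together, while for replicates 2 and 3 same-numbered and other libraries overlapped in correlation. Pairing replicates 2 and 3 by number is thus an assumption of the fits that hold the replicate number as a block. Values from these fits stand beside those calls that they change. The deletion could not be checked from the *Zbtb11* counts, since in the annotation used its reads fall in the row of *Rpl24*, a ribosomal protein gene, which held 349 to 386 CPM, the reads on a gene scaled to a common library total, in the EtOH control and 359 to 364 CPM in KO cells. The ESC identity of the cells was checked on marker genes. The summed level of 9 ESC markers was 4397 to 5033 CPM in KO cells, 4523 to 5024 CPM in the EtOH control and 5132 to 5490 CPM in the 4OHT control. That of 7 fibroblast markers was 18.4 to 28.6 CPM over all libraries, with *Lum* at 0 throughout and *Thy1* at up to 12.6 CPM. That of 10 differentiated cell markers was 45.3 to 60.8 CPM, with *Nes* the highest at 25.7 to 36.7 CPM.

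p53 is a tetrameric transcription factor that is held low in unstressed cells by Mdm2, a ubiquitin ligase that marks it for degradation, and that is stabilised when DNA or the nucleolus is damaged. Because p53 activity is set mainly at the level of the protein, the transcripts of its targets are the usual readout of it. *Mdm2* is itself a target and closes a feedback loop. *Cdkn1a* encodes p21, the inhibitor of cyclin-dependent kinases that arrests the cell cycle, and *Ccng1* encodes cyclin G1, which acts with a phosphatase on Mdm2. *Bax*, *Phlda3*, *Trp53inp1* and *Aen* act towards cell death, through the outer mitochondrial membrane, through restraint of the kinase Akt, through p53 phosphorylation and autophagy, and as a nuclease. *Zmat3* encodes a zinc finger protein that binds RNA, and *Sesn2* encodes sestrin 2, which restrains mTORC1 signalling. ESCs are known for high p53 levels with a muted arrest response.

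p53 binds a pair of decamers with a CATG-type core, and the members were searched for such pairs from 2 kb upstream to 1 kb downstream of their start, since such letters are where p53 can bind a target directly. Adjacent decamers with no spacer were matched to the p53 consensus, with the C and G of each core held fixed and up to 3 mismatches in 20 bases. They are shown in the direction of the gene, from the NCBIM37 (mm9) reference, which is of another mouse strain than E14 cells, with the 4 core bases of each decamer in capitals.

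*Cdkn1a* at -51: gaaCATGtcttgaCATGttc
*Ccng1* at -170: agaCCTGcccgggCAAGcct
*Ccng1* at +356: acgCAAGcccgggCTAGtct
*Bax* at +305: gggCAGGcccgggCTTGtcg
*Mdm2* at +634: ggtCAAGttgggaCACGtcc
*Trp53* at -75: ggaCTTGcccttaCTTGtta

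The *Cdkn1a* pair, at chr17:29227873-29227892 on the plus strand, and both *Ccng1* pairs, at chr11:40568964-40568983 and chr11:40568438-40568457 on the minus strand, had 1 mismatch each. A pair with at most 1 mismatch was present in 0.477% of the 13195 windows of expressed protein-coding genes. *Bax* had a pair with 2 mismatches at chr7:52721944-52721963, where 3.15% of windows held a pair at that limit. *Mdm2*, at chr10:117147161-117147180 just upstream of transcript starts annotated within the gene, *Trp53*, at chr11:69393786-69393805, *Aen* and a further site of *Ccng1* were reached with 3 mismatches, a limit that 13.9% of windows met. *Phlda3*, *Zmat3*, *Trp53inp1* and *Sesn2* held no match in this window. A match of letters is a description of the window and not a bound site. Start here and below means the outermost start annotated for a gene, and other transcript starts were not given windows of their own. A distance from it need not be the distance from the transcript start used most in these cells.

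In mm9 the members lie at chr11:69393861-69405375 (*Trp53*), chr10:117125944-117147814 (*Mdm2*), chr17:29227924-29237667 (*Cdkn1a*), chr11:40562054-40568813 (*Ccng1*) and chr7:52717065-52722268 (*Bax*). The others lie at chr1:137662696-137665713 (*Phlda3*), chr4:11083578-11101526 (*Trp53inp1*), chr7:86040740-86056095 (*Aen*), chr3:32233718-32264600 (*Zmat3*) and chr4:132047947-132066416 (*Sesn2*). *Trp53* and *Ccng1* share chromosome 11, *Bax* and *Aen* chromosome 7, and *Trp53inp1* and *Sesn2* chromosome 4.

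Per kb of exon, over replicates 2 and 3 of the 3 groups, *Trp53* had the highest level with 130 to 148 CPM per kb, followed by *Bax* with 85.6 to 97.5, *Ccng1* with 57.9 to 93.5 and *Sesn2* with 38.9 to 63.3 CPM per kb. *Bax* and *Ccng1* overlapped in range, and so did *Ccng1* and *Sesn2*. A lower group followed, in which *Trp53inp1* (23.7 to 32.1 CPM per kb), *Zmat3* (22.6 to 29.4) and *Mdm2* (17.7 to 27.1) overlapped with one another, as did *Cdkn1a* (14.6 to 18.2), *Aen* (15.1 to 17.1) and *Phlda3* (10.7 to 21.6 CPM per kb). No member fell under 368 reads in any library. *Trp53* and *Aen* are less certain as levels, because parts of their longest coding transcripts matched a single other place in the genome at 95% identity or more. For *Trp53* this was 62.7% of the transcript, with 1177 bases at 95.1%, near the limit of the search. For *Aen* it was 31.2%, with 902 bases at 99.6%. For *Ccng1* this share was 6.8%, and it was 0 for the other 7 members.

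*Trp53* itself did not pass the test in any comparison, and in bulk RNA less transcript per cell and fewer cells that carry it cannot be told apart. In replicates 1, 2 and 3 it stood at 397, 561 and 599.9 CPM in the EtOH control, at 417, 547 and 529 CPM in KO cells and at 329, 527 and 546 CPM in the 4OHT control. Over all 3 replicates the groups overlapped, while in replicates 2 and 3 the EtOH control lay above both other groups, and replicate 1 was the lowest in each. KO cells against the EtOH control gave a log2 fold change of -0.11 (standard error 0.07, adjusted p = 0.919), the 4OHT control against the EtOH control -0.11 (0.07, adjusted p = 0.292), and KO cells against the 4OHT control 0.00 (0.07, adjusted p = 0.976). Within 2 standard errors, the first of these spans -0.24 to 0.03. *Wrap53*, which starts 104 bases away on the opposite strand and encodes a telomerase and Cajal body factor, stood at 24.4 to 41.2 CPM over all libraries and did not pass either, with a log2 fold change of 0.14 (standard error 0.10, adjusted p = 0.920) in KO cells against the EtOH control. *4930429B21Rik*, next to *Zmat3*, and *Gm12981*, next to *Sesn2*, were at 0.799 to 3.41 CPM and 0.865 to 2.21 CPM, and neither passed.

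**Figure D1:**
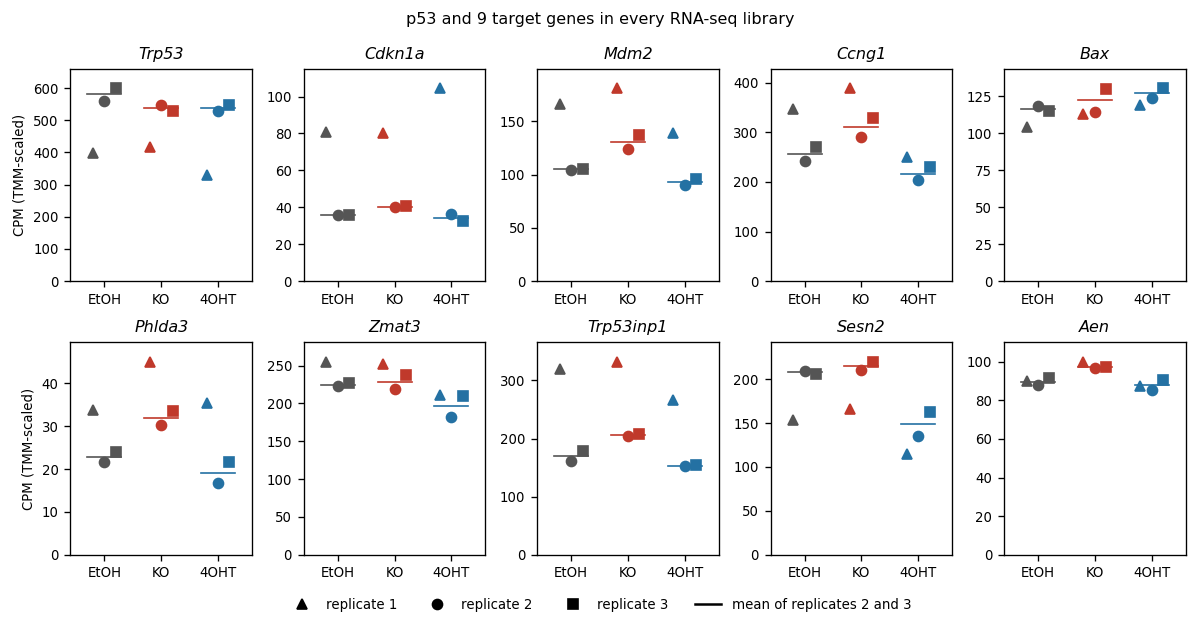
Level of each gene in every library, in CPM after TMM scaling, on a linear axis from 0, for the EtOH control (grey), Zbtb11 KO cells (red) and the 4OHT control (blue). Triangles are replicate 1, circles replicate 2, squares replicate 3, and bars the mean of replicates 2 and 3; *Mdm2*, *Ccng1*, *Phlda3* and *Trp53inp1* run from the 4OHT control up to KO cells, and replicate 1 stands apart for *Cdkn1a* and *Trp53*.

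The first comparison asked whether these genes change when *Zbtb11* is deleted. Between KO cells and the EtOH control, 0 of the 10 members were called over replicates 2 and 3 without a block, where 1.50% of all tested genes were called, and 4 of the 10 had an unadjusted p under 0.05, against 6.32% of all genes. The largest differences were those of *Phlda3*, *Mdm2*, *Ccng1* and *Trp53inp1*, and each of these was higher in KO cells in all 3 numbered pairs of libraries. With the replicate number as a block, 3 members were called over all 3 replicates (*Mdm2*, *Ccng1* and *Phlda3*, 2.25% of all genes called) and 4 over replicates 2 and 3 (the same 3 and *Trp53inp1*, 2.27% of all genes called). All were higher in KO cells, a direction in which 0.460% and 0.423% of all genes were called. DESeq2 on replicates 2 and 3 called 1 member, *Mdm2*, where it called 1.45% of all genes.

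*Phlda3* stood at 33.7, 21.6 and 24.0 CPM in replicates 1, 2 and 3 of the EtOH control and at 45.1, 30.3 and 33.7 CPM in KO cells. Each KO library exceeded its numbered control, by 1.33, 1.39 and 1.40 times. The log2 fold change was 0.49 (standard error 0.12, adjusted p = 0.0919), and with the block over all 3 replicates 0.46 (0.08, adjusted p = 0.00155). *Mdm2* stood at 166, 104 and 106 CPM in the EtOH control and at 181, 124 and 137 CPM in KO cells. Its pairs differed by 1.09, 1.19 and 1.30 times, and replicates 2 and 3 of the groups did not overlap. Its log2 fold change was 0.32 (standard error 0.07, adjusted p = 0.058), or 0.25 (0.06, adjusted p = 0.0145) with the block over all 3 replicates.

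*Ccng1* stood at 347, 241 and 271 CPM in the EtOH control and at 389, 291 and 329 CPM in KO cells, a difference of 1.12 to 1.21 times in the 3 pairs. Its log2 fold change was 0.28 (standard error 0.09, adjusted p = 0.31), and 0.23 (0.05, adjusted p = 0.0148) with the block. *Trp53inp1* stood at 319.7, 162 and 178 CPM in the EtOH control and at 332, 204 and 208 CPM in KO cells. Its log2 fold change of 0.28 (standard error 0.07, adjusted p = 0.0941) was called with the block over replicates 2 and 3 (adjusted p = 0.00912) but not over all 3 (adjusted p = 0.0922). For these 4 genes the sizes ranged from 1.04 to 1.40 times in the pairs, within a comparison in which most called genes fell.

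The other members gave smaller values. *Cdkn1a*, the p21 gene, stood at 81.0, 35.6 and 35.8 CPM in the EtOH control and at 80.0, 40.0 and 40.5 CPM in KO cells, which was higher in 2 of 3 pairs and gave a log2 fold change of 0.18 (standard error 0.08, adjusted p = 0.80). *Aen* stood at 90.1, 87.9 and 91.5 CPM in the EtOH control and at 99.995, 96.9 and 97.5 CPM in KO cells, so that every KO library lay above every EtOH control library. *Bax* was at 104 to 119 and 113 to 130.0 CPM and *Zmat3* at 223 to 255 and 219 to 252 CPM in the EtOH control and KO cells, and for both the groups overlapped. *Bax*, *Zmat3*, *Sesn2* and *Aen* had log2 fold changes of 0.07, 0.03, 0.06 and 0.12, none of which passed in any of these fits. *Aen* and *Sesn2* were nevertheless higher in KO cells in all 3 pairs, by 1.07 to 1.11 and by 1.01 to 1.09 times. In all, 6 of the 10 members were higher in each of the 3 pairs, as were 17.5% of all tested genes, and none was lower in each. The median log2 fold change of the members was 0.15, beside -0.0014 over all tested genes.

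The 4OHT control was called against the EtOH control at 1 of 10 members, *Sesn2*, where 17.1% of all genes were called and 8.22% were called lower. *Sesn2* stood at 153, 209 and 206 CPM in the EtOH control, at 166, 211 and 219.96 CPM in KO cells and at 114, 135 and 162 CPM in the 4OHT control. The 4OHT control was the lowest group for each replicate number, with a log2 fold change against the EtOH control of -0.48 (standard error 0.08, adjusted p = 0.00248). With the block, 6 members were called over all 3 replicates, *Sesn2*, *Ccng1*, *Mdm2*, *Trp53inp1* and *Zmat3* lower and *Bax* higher in the 4OHT control, where 33.6% of all genes were called. Over replicates 2 and 3 with the block 5 were called, with *Phlda3* in place of *Trp53inp1* and *Bax*, where 27.6% of all genes were called. Lower values in the 4OHT control in all 3 pairs were seen for 7 of 10 members and for 29.2% of all genes, and the median log2 fold change of the members was -0.16 beside 0.01 over all genes. Of 9 ESC markers, 4 were higher in the 4OHT control than in the EtOH control (*Dppa5a*, *Klf2*, *Klf4* and *Zfp42*) and 1 was lower (*Nanog*), while 0 of 9 were called between KO cells and the EtOH control. The part of the ESC markers in the values of the p53 targets was not tested.

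Against the 4OHT control, KO cells were higher at 5 of the 10 members, *Phlda3*, *Sesn2*, *Ccng1*, *Mdm2* and *Trp53inp1*. Here 18.7% of all genes were called and 8.38% were called higher, and with library size in place of TMM scaling the higher genes made up 55.9% of all calls in place of 44.9%. The comparison shares its KO libraries with the first comparison and its 4OHT libraries with the second. *Phlda3* was at 35.5, 16.7 and 21.5 CPM in replicates 1, 2 and 3 of the 4OHT control, below its numbered KO library each time by 1.27 to 1.79 times, with a log2 fold change of 0.74 (standard error 0.12, adjusted p = 0.00134). *Mdm2* was at 139, 89.9 and 96.2 CPM and its log2 fold change was 0.49 (0.07, adjusted p = 0.000679).

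*Ccng1* was at 251, 203 and 229.8 CPM in the 4OHT control and differed by a log2 fold change of 0.52 (standard error 0.09, adjusted p = 0.00153), and *Sesn2* by 0.53 (0.08, adjusted p = 0.000848). *Trp53inp1* was at 266, 153 and 154 CPM in the 4OHT control and differed by 0.42 (0.07, adjusted p = 0.00117). Every KO library exceeded its numbered 4OHT control library at these 5 genes, and each of the 5 stayed called when any 1 of the 6 libraries was left out. In fits with replicate 1 and no block, over all 3 replicates, replicates 1 and 2, or replicates 1 and 3, 0 of 10 members were called. *Zmat3* and *Aen*, which were not called over replicates 2 and 3 either, were also higher in each pair. In all, 7 of 10 members were higher in all 3 pairs, beside 30.0% of all genes.

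*Zmat3* was at 211, 183 and 210.1 CPM and *Aen* at 87.7, 85.6 and 90.4 CPM in the 4OHT control, and every KO library lay above every 4OHT control library for both genes. *Zmat3* and *Aen* had log2 fold changes of 0.22 (standard error 0.08, adjusted p = 0.0689) and 0.14 (0.07, adjusted p = 0.159) between KO cells and the 4OHT control. Both were called with the block over all 3 replicates, which gave 7 called members where 34.9% of all genes were called. Over replicates 2 and 3 with the block 7 members were called as well, with *Cdkn1a* in place of *Aen*, where 29.5% of all genes were called. *Cdkn1a* did not keep a direction across replicates. Its log2 fold change against the 4OHT control was 0.23 over replicates 2 and 3 (adjusted p = 0.0774) and -0.01 over all 3 replicates with the block (adjusted p = 0.934). Its replicate 1 was 105 CPM in the 4OHT control and 80.0 CPM in KO cells, while replicates 2 and 3 were 36.3 and 32.4 CPM against 40.0 and 40.5 CPM. *Bax*, the pore-forming member of the Bcl2 family, was at 119 to 131 CPM in the 4OHT control and 113 to 130.0 CPM in KO cells, with a log2 fold change of -0.06 (0.07, adjusted p = 0.648). The ESC markers moved in the same comparison, with 5 of 9 lower in KO cells and none higher, where 10.3% of all genes were called lower. With the block, 7 were lower and 1, *Nanog*, was higher over all 3 replicates, and 6 were lower and the same 1 higher over replicates 2 and 3, where 34.9% and 29.5% of all genes were called. Their part in the values of the p53 targets was not tested here either.

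**Figure D2:**
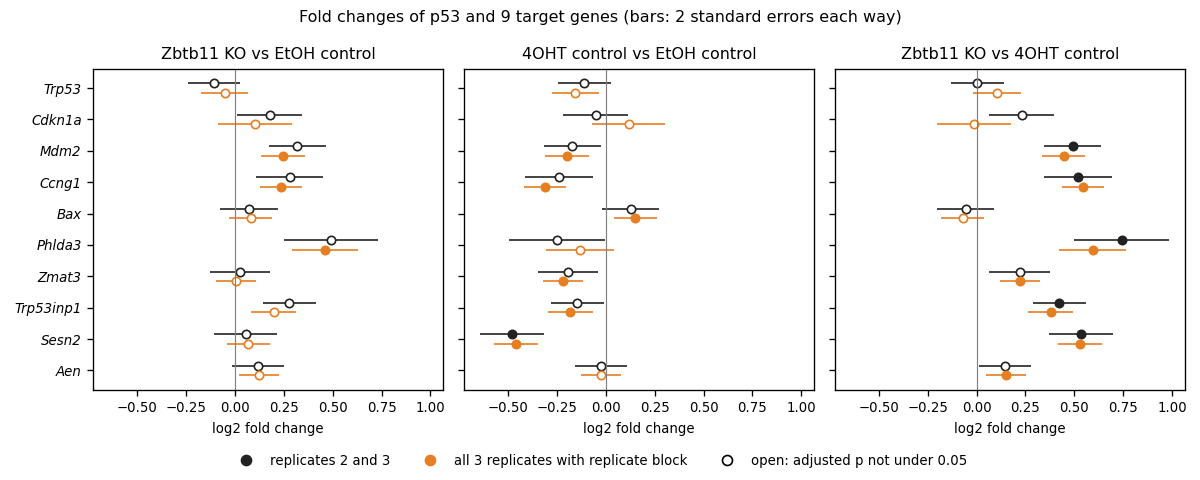
Log2 fold change of each gene in the 3 comparisons, from replicates 2 and 3 without a block (black) and from all 3 replicates with the replicate number as a block (orange). Bars are 2 standard errors each way and filled points have an adjusted p under 0.05; *Mdm2*, *Ccng1* and *Phlda3* lie above 0 in both comparisons of KO cells, and *Sesn2* is the lowest point between the controls.

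Other p53 targets were described from 3 lists of known targets, with 47 genes tested. Between KO cells and the EtOH control, 0 of 47 were called (9 at an unadjusted p under 0.05, and 0 by DESeq2), where 1.50% of all genes were called and 6.32% had such an unadjusted p, and the median log2 fold change was 0.10. The block gave 2 calls, both higher, of *Zfp365* with *Ckap2* over all 3 replicates and with *Btg2* over replicates 2 and 3. In these 2 fits 2.25% and 2.27% of all genes were called, and 0.460% and 0.423% were called higher. Between KO cells and the 4OHT control 21 of 47 were called, 18 higher and 3 lower, where 18.7% of all genes were called, 8.38% higher and 10.3% lower, and the median was 0.26. Between the controls 14 were called, 4 higher and 10 lower in the 4OHT control, where 17.1% of all genes were called, 8.86% higher and 8.22% lower, and the median was -0.14. These shares are the background of the counts for single lists that follow. For calls said below to be lost on leaving out a library, not every such library is named. Several of these calls, such as those of *Hipk2* and *Mdm4* against the 4OHT control, were also lost without other libraries.

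Of 13 cell cycle targets, 8 were higher and 0 lower in KO cells than in the 4OHT control, with a median log2 fold change of 0.31, where 8.38% of all genes were called higher. With the block, over all 3 replicates and over replicates 2 and 3 alike (34.9% and 29.5% of all genes called), 9 were higher and 1 lower, *Sesn1*, which had log2 fold changes of -0.37 and -0.38 (adjusted p = 0.00495 and 0.0236). *Btg2*, an antiproliferative factor, was at 71.5, 29.7 and 25.5 CPM in the 4OHT control, at 87.8, 42.7 and 47.5 CPM in KO cells and at 74.5, 32.9 and 37.5 CPM in the EtOH control, and the log2 fold change against the 4OHT control was 0.71 (standard error 0.10, adjusted p = 0.000632). KO cells were the highest group for every replicate number. *Sfn*, a 14-3-3 protein of the G2 arrest, the polo-like kinases *Plk2* and *Plk3*, *Gtse1*, a p53-binding microtubule protein, and *Ckap2* were also higher in KO cells than in the 4OHT control, by log2 fold changes of 0.63, 0.59, 0.46, 0.36 and 0.27. Against the EtOH control their values were 0.17, 0.36, 0.11, 0.04 and 0.22, none of them called without a block. *Sesn1*, the other sestrin of the lists, was higher in the 4OHT control than in the EtOH control by 0.54 (0.14, adjusted p = 0.0239), while *Plk3*, *Btg2* and *Gtse1* were lower by log2 fold changes of -0.35, -0.35 and -0.32. *Sfn* joined these with the block over replicates 2 and 3 (-0.45, adjusted p = 0.00788). Without Zbtb11 KO replicate 3 the calls of *Plk2*, *Sfn*, *Gtse1* and *Ckap2* against the 4OHT control were lost (adjusted p = 0.0916, 0.097, 0.0673 and 0.187), while those of *Btg2* and *Plk3* held without any 1 library. Between the controls, *Sesn1*, *Plk3*, *Btg2* and *Gtse1* were lost without EtOH control replicate 3 (adjusted p = 0.104, 0.12, 0.306 and 0.181).

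Of 10 cell death targets, 6 were higher and 1 lower in KO cells than in the 4OHT control. *Steap3*, a metalloreductase, *Bbc3*, which encodes the BH3-only protein Puma, the receptors *Eda2r* and *Tnfrsf10b*, and *Siva1* were higher than in the 4OHT control. Their log2 fold changes were 0.71, 0.50, 0.45, 0.34 and 0.27. *Ei24* was lower by 0.33. Against the EtOH control their values were, in the same order, 0.09, 0.11, 0.23, 0.06, 0.07 and 0.03, none of them called. *Steap3*, *Bbc3* and *Tnfrsf10b* were also lower and *Ei24* higher in the 4OHT control than in the EtOH control, with log2 fold changes of -0.61, -0.39, -0.28 and 0.36. *Eda2r* was also called lower there with the block over all 3 replicates and over replicates 2 and 3 (adjusted p = 0.00218 and 0.0278), and *Siva1* with the block over replicates 2 and 3 (adjusted p = 0.0322). *Bbc3* was at 56.0, 23.5 and 23.8 CPM in the 4OHT control and 49.6, 30.7 and 31.4 CPM in the EtOH control, so its replicate 1 went against the other 2. With the block over all 3 replicates *Bbc3* was called neither between the controls (adjusted p = 0.212) nor against the 4OHT control (adjusted p = 0.0752). Without Zbtb11 KO replicate 3 the calls of *Steap3*, *Eda2r*, *Tnfrsf10b* and *Siva1* against the 4OHT control were lost (adjusted p = 0.0544, 0.0869, 0.114 and 0.145). Without EtOH control replicate 3 those of *Steap3*, *Bbc3* and *Tnfrsf10b* between the controls were lost (adjusted p = 0.0971, 0.0977 and 0.239), and *Ei24* held in both comparisons without any 1 library.

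Of 24 repair and metabolism targets, 4 were higher and 2 lower in KO cells than in the 4OHT control, where 8.38% of all genes were called higher and 10.3% lower. *9030617O03Rik* (also named *Dglucy*), *Zfp365*, *Lif*, the cytokine that keeps ESCs undifferentiated, and *9630033F20Rik* (also named *Tigar*, a fructose bisphosphatase) were higher by log2 fold changes of 1.25, 0.96, 0.90 and 0.86. *Pltp*, a phospholipid transfer protein, and *Sulf2*, a heparan sulfate sulfatase, were lower by 0.60 and 0.52. Against the EtOH control their values were, in the same order, 0.34, 0.31, 0.52, 0.04, 0.04 and -0.07, none of them called without a block. Of these 6, all but *Lif* also differed between the controls in the opposite sense, with *9630033F20Rik* at 26.8, 44.2 and 45.5 CPM in the 4OHT control, 51.5, 83.4 and 74.9 CPM in the EtOH control and 55.1, 84.0 and 78.4 CPM in KO cells. KO cells and the EtOH control overlapped for this gene and the 4OHT control lay below both. *Gpx1*, glutathione peroxidase, was lower in the 4OHT control than in the EtOH control by a log2 fold change of -0.40, a call lost with the block over all 3 replicates (adjusted p = 0.0579) and without EtOH control replicate 3 (adjusted p = 0.185). Against the 4OHT control *Gpx1* was called higher in KO cells only with the block, over all 3 replicates and over replicates 2 and 3 (adjusted p = 0.0258 and 0.000943). The calls of the other 6 held without any 1 library.

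Of 23 regulators and relatives of p53, 1 was called between KO cells and the EtOH control. *Trp53rk*, a kinase of the KEOPS complex that modifies tRNA, was at 2.21, 2.64 and 3.80 CPM in the EtOH control and 0.349, 0.828 and 1.09 CPM in KO cells, and fell by 1.73 on the log2 scale (standard error 0.29, adjusted p = 0.00593). No KO library reached an EtOH control library, and its counts were low, between 6 and 92 reads. The call held with the block and was lost without EtOH control replicate 3, Zbtb11 KO replicate 2 or Zbtb11 KO replicate 3 (adjusted p = 0.0786, 0.135 and 0.055). Against the 4OHT control, *Trp53rk* and the deacetylase *Sirt1* were lower in KO cells, with log2 fold changes of -2.02 and -0.34, and *Trp73*, the p53 relative, the checkpoint kinase *Chek2*, *Hipk2* and *Mdm4*, the partner of Mdm2, were higher, by 0.92, 0.41, 0.26 and 0.25. *Chek2*, *Hipk2*, *Ppp1r13l* and *Chek1* were lower and *Sirt1* higher in the 4OHT control than in the EtOH control, with log2 fold changes of -0.52, -0.39, -0.35, -0.32 and 0.35. *Sirt1* was not called with the block over all 3 replicates in either comparison (adjusted p = 0.177 against the 4OHT control and 0.0766 between the controls). With the block over all 3 replicates and over replicates 2 and 3, *Chek1* was called higher in KO cells than in the 4OHT control (adjusted p = 0.00594 and 0.0401). In the same fits *Trp73* (adjusted p = 0.00936 and 0.0136) and *Mdm4* (adjusted p = 0.00338 and 0.0371) were called lower in the 4OHT control than in the EtOH control. Without Zbtb11 KO replicate 3 the calls of *Trp73*, *Hipk2* and *Mdm4* were lost (adjusted p = 0.104, 0.0861 and 0.0685), and without EtOH control replicate 3 those of *Hipk2*, *Ppp1r13l*, *Chek1* and *Sirt1* between the controls (adjusted p = 0.0701, 0.156, 0.107 and 0.0546).

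Arrest through p21 is known to lower a set of cell cycle genes, and 16 of these were tested. In KO cells against the EtOH control 0 of 16 were called, with a median log2 fold change of -0.03. Against the 4OHT control 1 was higher, *Kif23* by 0.31, and 3 were lower, *Mybl2*, *Bub1* and *Mcm5*, with log2 fold changes of -1.29, -0.31 and -0.27, where 18.7% of all genes were called. With the block over all 3 replicates 4 were higher, *Ccna2*, *Cdc20*, *Cdc25c* and *Kif23*, and 3 lower, and over replicates 2 and 3 with the block 2 were higher and 4 lower, where 34.9% and 29.5% of all genes were called. *Mybl2*, a transcription factor of the cell cycle, was at 602 to 748 CPM in the 4OHT control against 266 to 291 CPM in the 6 libraries of the other groups, and the 4OHT control was higher than the EtOH control by 1.26 (standard error 0.10, adjusted p = 1.09e-05). *Bub1* was also higher there and *Kif23* lower, with log2 fold changes of 0.22 and -0.34, and *Mcm5* was called higher with the block over all 3 replicates (adjusted p = 0.0112). Without Zbtb11 KO replicate 3 the calls of *Kif23* and *Mcm5* against the 4OHT control were lost (adjusted p = 0.053 and 0.0963), and without EtOH control replicate 3 those of *Bub1* and *Kif23* between the controls (adjusted p = 0.19 and 0.0641). In the Bcl2 family, 0 of 10 were called between KO cells and the EtOH control. *Bmf* was lower and *Bcl2l1* higher in KO cells than in the 4OHT control, with log2 fold changes of -0.78 and 0.42, and the controls differed at *Bmf*, *Mcl1* and *Bcl2l1* with values of 0.73, 0.35 and -0.42. *Mcl1* was called lower in KO cells than in the 4OHT control with the block over all 3 replicates and over replicates 2 and 3 (adjusted p = 0.000111 and 0.00227). Between the controls *Bmf* and *Mcl1* were lost without EtOH control replicate 3 (adjusted p = 0.0532 and 0.18) and *Bcl2l1* without EtOH control replicate 2 (adjusted p = 0.0638).

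**Figure D3:**
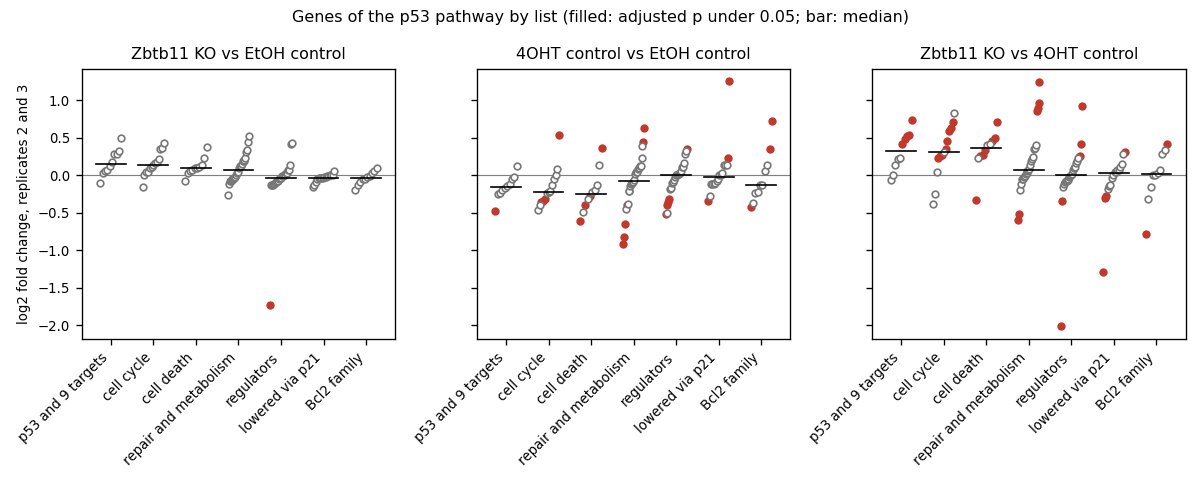
Log2 fold changes over replicates 2 and 3 of each gene in 7 lists of the p53 pathway, by comparison. Each point is 1 gene, filled where the adjusted p was under 0.05, and bars are medians; in KO cells against the EtOH control the only filled point is *Trp53rk*, and in KO cells against the 4OHT control the first 4 lists have medians of 0.33, 0.31, 0.37 and 0.08.

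The largest differences among the members lay between replicate 1 and the other replicates of the same group, which is described here without a test, as each group has 1 such library. *Cdkn1a* was 2.27, 1.99 and 3.04 times as high in replicate 1 as in the mean of replicates 2 and 3 in the EtOH control, KO cells and the 4OHT control. *Trp53inp1* was 1.88, 1.61 and 1.73 times as high. These 2 of 10 members passed 1.5 times in all 3 groups, as 5.37% of all tested genes did. *Mdm2*, at 1.39 to 1.59 times, and *Phlda3*, at 1.41 to 1.85 times, passed it in some groups. *Ccng1* and *Zmat3* were higher in replicate 1 in all groups by smaller ratios, and *Bax* and *Aen* were near 1, at 0.89 to 1.03.

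*Trp53* went the other way, with 0.69, 0.77 and 0.61 of the level of replicates 2 and 3, as did *Sesn2* with 0.74 to 0.77. No member was lower by over 1.5 times in all 3 groups, as 2.96% of all genes were. Among the 47 other targets 9 were higher by over 1.5 times in all 3 groups and none lower, with a median ratio of 1.20 to 1.34 in the 3 groups, beside 0.96 to 0.99 over all genes. Among these 9 were *Ddit4* at 2.46 to 3.07 times and *Btg2*, *Plk2* and *Pmaip1*, which encodes the BH3-only protein Noxa, at 1.70 to 2.59 times. Of the 16 cell cycle genes lowered through p21 none passed in either direction. Library preparation and culture are not given by replicate, so what sets replicate 1 apart was not tested.

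**Figure D4:**
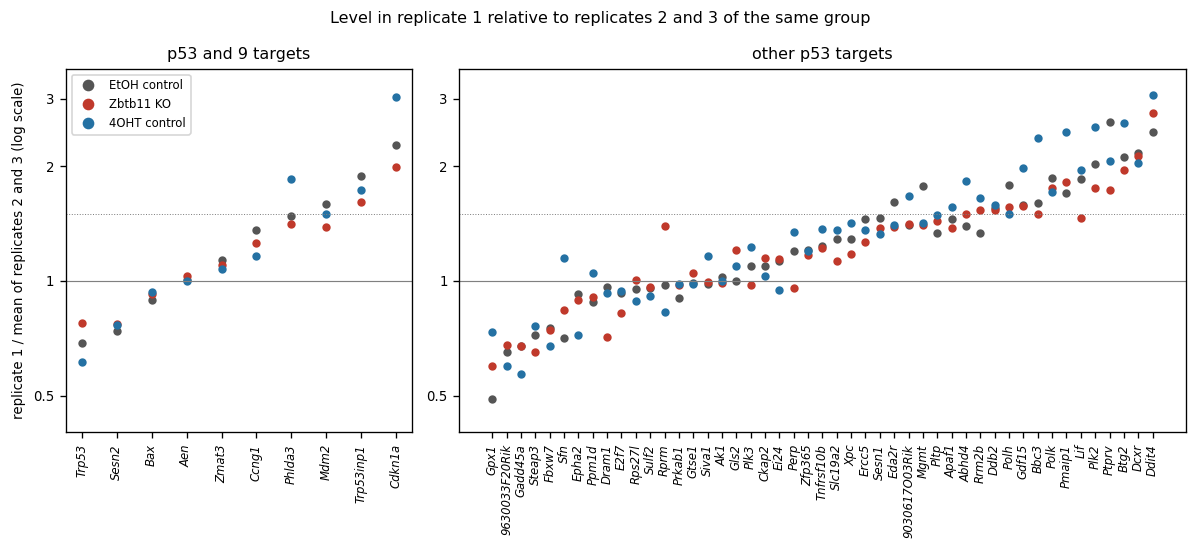
Level in replicate 1 divided by the mean of replicates 2 and 3 of the same group, on a log axis, for p53 and its 9 targets (left) and 47 other p53 targets (right), 1 point a group. The dotted line marks 1.5 times; *Cdkn1a* and *Trp53inp1* lie above it in all 3 groups and *Trp53* lies under 1 in all 3.

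Zbtb11 peaks were then placed at the members. A promoter ran from 2 kb upstream to 500 bases downstream of the gene start in mm9, and the consensus set held 7500 peaks found with both reagents. A consensus peak touched the promoter of 5 of 10 members, *Trp53*, *Mdm2*, *Bax*, *Zmat3* and *Trp53inp1*, and of 29.3% of the 13195 expressed protein-coding genes. The same 5 had a peak in the Zbtb11 antibody list and in the FLAG-Zbtb11 list, where 34.5% and 34.9% of these genes had one, and none had a peak in the FLAG control, where 0.212% had one. When at least 50% of the peak had to lie in the promoter, *Trp53* and *Mdm2* dropped out and 3 members remained, beside 26.7% of genes. *Cdkn1a*, *Ccng1*, *Phlda3*, *Sesn2* and *Aen* had no consensus peak whose centre lay within 10 kb of their start. Of these 5, *Cdkn1a* had the nearest centre, at -11724 bases from its start.

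The *Trp53* peak was by far the strongest of the 5. In the peak lists it was wider and spanned the start. It ran from -237 to 1848 bases from the start in the antibody list and from -209 to 2143 in the FLAG-Zbtb11 list. The antibody list also held a separate peak in the promoter, at -1740 to -697. The consensus peak was listed at chr11:69394356-69395556, inside the first intron, with its centre 1095 bases downstream of the start. It reached the promoter window of *Trp53* by 6 bases. By the same rule it lay wholly within the promoter of *Wrap53*, on the opposite strand, so it cannot be assigned to *Trp53* alone. The normalised coverage of the consensus peak was 308, 365, 361 and 353 in the 4 Zbtb11 antibody libraries (mean 347 ± 27, SD, n = 4) and 312, 379 and 325 in the 3 FLAG-Zbtb11 libraries (mean 339 ± 35, SD, n = 3). The 7 values lay between 308 and 379, and the antibody mean ranked 742 of 7500 peaks, above the 309 that marks 1.5 interquartile ranges over the upper quartile. The 300 bases at its centre, chr11:69394807-69395106 on the plus strand, are shown because no other member had a peak at such a level. Capitals mark GGAA on either strand, the core letters of the ETS factor family, which occur 7 times here. In the central 300 bases of all consensus peaks their median was 5, with a 5th percentile of 1 and a 95th percentile of 9.

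*Trp53* peak centre: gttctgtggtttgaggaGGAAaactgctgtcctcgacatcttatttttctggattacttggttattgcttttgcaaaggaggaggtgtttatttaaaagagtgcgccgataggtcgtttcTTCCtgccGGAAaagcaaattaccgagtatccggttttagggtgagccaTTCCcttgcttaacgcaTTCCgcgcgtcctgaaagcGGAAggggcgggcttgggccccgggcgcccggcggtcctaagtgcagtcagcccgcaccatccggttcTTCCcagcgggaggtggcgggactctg

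The longer ETS letters CCGGAAG occurred on either strand in 39.1% of consensus peaks. They also occurred in 37.1% of the 13195 windows from 2 kb upstream to 1 kb downstream of the start, which are longer than a peak. In these windows *Trp53*, *Mdm2* and *Sesn2*, the last without a promoter peak, held 3, 2 and 1 matches. Within the peaks, the letters occurred at 1 place at *Trp53*, 652 bases downstream of the start, and at 1 place at *Mdm2*, 576 bases downstream. They occurred at no place in the peaks of the other 3 members. Both are given with 12 flanking bases on each side and the match in capitals.

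*Trp53* at +652: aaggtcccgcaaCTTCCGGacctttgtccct
*Mdm2* at +576: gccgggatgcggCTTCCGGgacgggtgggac

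The *Mdm2* peak was centred 601 bases downstream of the first start, at chr10:117146613-117147813, over the transcript starts annotated within *Mdm2* and the p53 decamer pair at +634. Its coverage was 85.6 to 123 in the antibody libraries (mean 106 ± 16, SD, n = 4) and 132 to 161 in the FLAG-Zbtb11 libraries (mean 144 ± 15, SD, n = 3), and the ranges did not overlap. *Bax*, *Zmat3* and *Trp53inp1* had means of 63.3 ± 19.9, 50.2 ± 16.3 and 57.2 ± 16.7 (SD, n = 4), all under the median of 71.3 over all peaks. Their peaks were centred 169 and 303 bases downstream and 168 bases upstream of the start, at chr7:52721499-52722699, chr3:32263697-32264897 and chr4:11082810-11084010. In the FLAG-Zbtb11 libraries they had 30.7 to 45.9, 43.9 to 62.6 and 62.2 to 108 (n = 3), and for each gene the ranges of the reagents overlapped.

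The peaks were then set beside the RNA. Of the 5 genes higher in KO cells than in the 4OHT control, *Mdm2* and *Trp53inp1* had a peak and *Ccng1*, *Phlda3* and *Sesn2* had none. *Trp53*, with the strongest peak, had log2 fold changes of -0.11, -0.11 and 0.00 in the 3 comparisons. *Wrap53*, whose promoter holds the same peak, had 0.14, 0.17 and -0.02, none of them called. Among the other targets a promoter peak was found at 2 of 13 cell cycle genes, 0 of 10 cell death genes and 8 of 24 repair and metabolism genes, where 29.3% of all expressed protein-coding genes had one.

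**Figure D5:**
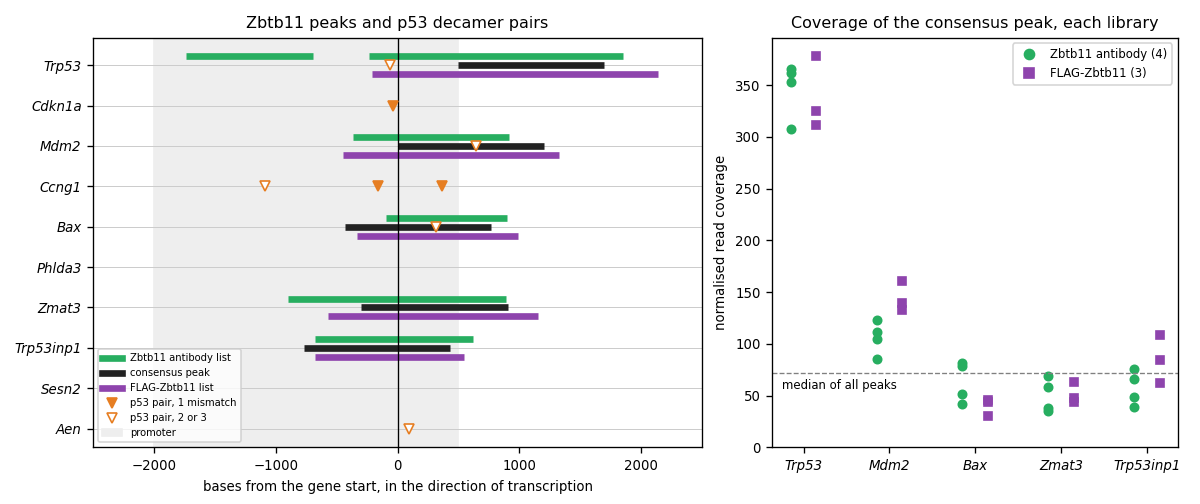
Left, Zbtb11 peaks in the antibody list (green), the consensus set (black) and the FLAG-Zbtb11 list (purple) around the start of each gene, in bases in the direction of transcription, with the promoter in grey and p53 decamer pairs as orange triangles. Right, normalised read coverage of the 5 consensus peaks in 4 antibody (circles) and 3 FLAG-Zbtb11 libraries (squares), on a linear axis from 0; *Trp53* lies at 308 to 379 and the other 4 at or below 161.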

How the data were processed

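RNA-seq libraries of 3 replicates in each of 3 groups and ChIP-seq peaks of Zbtb11 were analysed. The authors made directional RNA-seq libraries after rRNA depletion, cut adaptors (TrimGalore) and polyA tails (PRINSEQ), mapped by STAR and deposited raw HTSeq counts per gene, whose strand setting and versions are not given in the sources used here. Their ChIP-seq signal is deposited as read coverage normalised with DiffBind, after Bowtie 1.1.2 alignment to mm9, and the deposited peak lists hold positions only, called with MACS2 in an irreproducible discovery rate pipeline across replicates. Whether starts in the coverage table count from 0 is not stated, and its positions are given as listed. Gene names came from GENCODE vM1, which matched all 37310 identifiers, and between 25.3 and 31.6% of reads per library were assigned to no gene.

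A gene was tested if 2 libraries of replicates 2 and 3 (3 libraries with all replicates) exceeded 1 CPM, in edgeR 4.0.16 (R 4.3.3; TMM; legacy quasi-likelihood F test; 1 fit over the 3 groups) with Benjamini-Hochberg adjustment, and the fit was tested on simulated data. DESeq2 1.42.0 and other settings were alternatives. Deviations from group means, with replicate 1 in the means, correlated by 0.433 to 0.82 between same-numbered libraries of different groups. Between others they correlated by -0.753 to 0.524, so the ranges overlap. EtOH control 2 correlated by 0.433 with 4OHT control 2 and by 0.524 with 4OHT control 3. The numbers were taken to pair the libraries, which for replicates 2 and 3 is an assumption that these values cannot decide. The study calls the replicates biological, with no more said of their source. CPM values are scaled by TMM over all 9 libraries, and fold changes in numbered pairs carry a pseudocount of 0.5 CPM. No interval of a count is given, and p-values cover the spread between libraries only. Copies were searched with blastn 2.17.0 (95% identity over 200 bases).

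The members and lists were chosen with earlier results of these data known. Named are all members, genes starting within 2 kb of one, *Rpl24*, and in each list up to 6 called genes with the largest change in each comparison. Genes named for their level in replicate 1 were chosen after their values were seen.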

Additional observations from a re-analysis of the deposited data

How the results depend on the processing

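Of 10 members, the 0 calls of KO cells against the EtOH control became 3 with a replicate block over all 3 replicates, 4 with the block over replicates 2 and 3, 1 with DESeq2, 3 with library size in place of TMM and 3 with only the groups compared in the fit, and 0 to 3 on leaving out 1 library (3 without 4OHT control replicate 2 or replicate 3). The 1 call of the 4OHT control against the EtOH control became 6 and 5 with the replicate block, 0 over all 3 replicates without it, 0 over replicates 1 and 2, 0 over replicates 1 and 3, and 1 to 4 without 1 library (4 without 4OHT control replicate 3). The 5 calls of KO cells against the 4OHT control became 0, 0 and 0 over all 3 replicates without a block, replicates 1 and 2, and replicates 1 and 3, and were 5 to 6 without 1 library. Of the 47 other targets, the 0 calls against the EtOH control became 2 and 2 with the replicate block. The 14 calls between the controls became 3 over all 3 replicates without a block, 22 with the block over replicates 2 and 3, 0 over replicates 1 and 2, 0 over replicates 1 and 3, and 7 to 16 without 1 library (7 without EtOH control replicate 3, 9 without EtOH control replicate 2). The 21 calls of KO cells against the 4OHT control became 4, 0 and 0 in the same 3 fits without a block, and 10 to 21 without 1 library (10 without Zbtb11 KO replicate 3). Where 1 library of a group was left, its spread was taken to be that of the other groups. Over the named genes in all 3 comparisons, the replicate block gained 20 and lost 5 calls with all 3 replicates and gained 21 and lost none with replicates 2 and 3, and these stand beside the genes above. Members with a promoter peak fell from 5 to 3 when 50% of the peak had to lie in the promoter.

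Over all genes the 212, 2420 and 2645 calls of the 3 comparisons became 129, 583 and 925 with all 3 replicates and 323, 4816 and 5010 with the replicate block over them. With the block over replicates 2 and 3 they became 322, 3914 and 4174. Over replicates 1 and 2 they fell to 21, 24 and 114, and over replicates 1 and 3 to 13, 13 and 82. They were 207, 2420 and 2772 with library size, 249, 1936 and 2160 with only the groups compared, and 206, 1682 and 1911 with DESeq2. Of 1798 values under alternatives, 1417 kept direction and side of the threshold, or moved by less than the spread, 268 lost the call, 41 gained it, 32 moved and 40 changed sign.

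The 40 values that changed sign were called neither in the tests above nor under the alternative. In log2 fold change, *Cdkn1a* in KO cells against the 4OHT control turned from 0.23 to -0.1276 over all 3 replicates without a block, -0.0132 with the replicate block, -0.258 over replicates 1 and 2 and -0.2095 over replicates 1 and 3. *Cdkn1a* between the controls turned from -0.05 to 0.1938, 0.1164, 0.2872 and 0.2387 in the same order, and ran from -0.1382 to 0.0344 without 1 library. *Trp53* in KO cells against the EtOH control was 0.0047 and *Zmat3* -0.0302 over replicates 1 and 2. Without 1 library, *Trp53* against the 4OHT control ran from -0.0215 to 0.0298, *Bax* from -0.021 to 0.1589 against the EtOH control and from -0.1483 to 0.0315 against the 4OHT control, *Zmat3* from -0.0338 to 0.0855 against the EtOH control, and *Aen* between the controls from -0.0581 to 0.0127.

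Among the neighbours, *Wrap53* in KO cells against the 4OHT control became 0.0162 over all 3 replicates, 0.0213 with the replicate block, 0.1278 over replicates 1 and 3 and 0.015 with library size, and ran from -0.1656 to 0.1394 without 1 library. Between the controls it became -0.0453 over replicates 1 and 3. For all 3 replicates, the replicate block, replicates 1 and 2, and replicates 1 and 3, *4930429B21Rik* between the controls became -0.1389, -0.1385, -0.3131 and -0.3789 (-0.031 to 0.384 without 1 library), *Gm12981* in KO cells against the EtOH control -0.0504, -0.0236, -0.1207 and -0.2801 (-0.1039 to 0.5436), and *Rpl24* between the controls 0.0103, 0.0105, 0.0225 and 0.022 (-0.0331 to 0.0109). The cause of each shift was not tested.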
